A study of Mus musculus with 4 samples.

Results

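The genes described here encode 7 subunits of the GABA-A receptor, namely *Gabra2*, *Gabra3*, *Gabra4* and *Gabra5* of the alpha class, *Gabrb1* and *Gabrb2* of the beta class, and *Gabrg1* of the gamma class. They were found by matching the Ensembl identifiers of the count lists to these symbols in GENCODE release M21, and all 7 were present among the 55573 genes. RNA was sequenced from tdTomato-positive cells sorted by fluorescence from the basal telencephalon of mouse embryos at E16, counted from insemination as E1, at which time interneurons of the preoptic area (POA) migrate. The libraries fall into the genotypes *Hmx3-Cre/tdTomato/Dnmt1* wild-type (WT) and *Hmx3-Cre/tdTomato/Dnmt1 loxP2* knockout (KO), with 2 libraries of each and cells pooled from 12 WT and 6 KO embryos. All mice were on a C57BL/6J background. Both genotypes carry *Hmx3-Cre* and the *tdTomato* reporter, so that Cre acts in cells with a history of *Hmx3* expression, and in KO these cells lose exons 4 and 5 of *Dnmt1*, which encodes the DNA methyltransferase that copies methylation onto newly made DNA. The submitters call the 2 libraries of a genotype biological replicates whereas the study's methods describe technical duplicates of pooled samples, so that the spread and the p-values below describe these libraries and need not describe embryos.

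GABA-A receptors are chloride channels that open when GABA binds, and each is assembled from several subunits around a central pore. Alpha and beta subunits form the GABA binding site together, and the class of the remaining subunit, often gamma, helps to decide whether the receptor sits at synapses or outside them. In immature neurons chloride is high inside the cell, so that GABA depolarizes them, and this signal is known to act on migrating interneurons.

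The libraries held between 8075102 and 9995968 counted reads, and 3 counts corresponded to 0.294 to 0.372 CPM (counts scaled to library size with TMM factors). After edgeR's filter on low counts 16832 genes were tested, and 1329 of them were called at an adjusted p under 0.05 (edgeR's quasi-likelihood test with Benjamini-Hochberg adjustment), and 92.8% of these were higher in KO, or 75.9% once gene length and GC content were corrected for (length and GC correction) and 48.2% without WT replicate 2. Mitochondrial rRNA took 8.66% of the reads in WT replicate 1 and 1.51% to 2.32% in the others, and the 2 WT libraries varied more (biological coefficient of variation 0.234) than the KO libraries (0.103). *Dnmt1* had 385 and 446 CPM in WT and 283 and 281 CPM in KO (log2 fold change -0.56, standard error 0.14, edgeR adjusted p = 0.0511), where the count pools all exons and not only the deleted ones. *Hmx3*, the gene that drives Cre, was present in every library at 71.8 to 93.7 CPM, and the 7 markers of GABAergic neurons fixed for this purpose, *Gad1* and *Slc32a1* among them, were detected in all libraries.

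All 7 subunit genes were expressed in both genotypes, with at least 51 counts in every library, and all passed the expression filter. To compare genes with each other, CPM was divided by the length of all exons of a gene in kilobases (CPM per kb). On this scale *Gabra3* had the highest level in WT with 16.1 ± 4.16 CPM per kb (SD, n = 2), followed by *Gabra5* with 8.35 ± 2.72 and *Gabrb2* with 6.88 ± 1.43. *Gabra2* (3.19 ± 1.25), *Gabrg1* (2.17 ± 0.745), *Gabrb1* (1.97 ± 0.843) and *Gabra4* (1.07 ± 0.357) lay below them. The ranges of *Gabra5* and *Gabrb2* overlapped in WT, as did those of *Gabra2* and *Gabrg1* and those of *Gabrg1* and *Gabrb1*. All 7 genes were higher in WT replicate 1, however, and the order within each WT library was the one given. The order was not tested. In KO *Gabra3* again had the highest level with 11.8 ± 0.744 CPM per kb (SD, n = 2), whereas *Gabrb1* took rank 2 with 7.77 ± 0.0355, above *Gabrb2* (4.75 ± 0.773) and *Gabra5* (4.64 ± 0.794), whose ranges overlapped, as did those of *Gabrg1* (3.13 ± 0.930) and *Gabra2* (2.81 ± 1.09). *Gabra4* had the lowest level in both genotypes. With the longest transcript in place of all exons the WT levels of *Gabra4*, *Gabrb2* and *Gabrg1* moved by more than 1 SD, that of *Gabra4* to 1.59 and that of *Gabrg1* to 3.58 CPM per kb. *Gabrb2* then had 12.6 and 9.36 CPM per kb in WT and stood above *Gabra5* (11.4 and 7.15), and its KO values of 6.71 and 8.45 lay on both sides of those of *Gabrb1* (7.81 and 7.86).

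**Figure D1:**
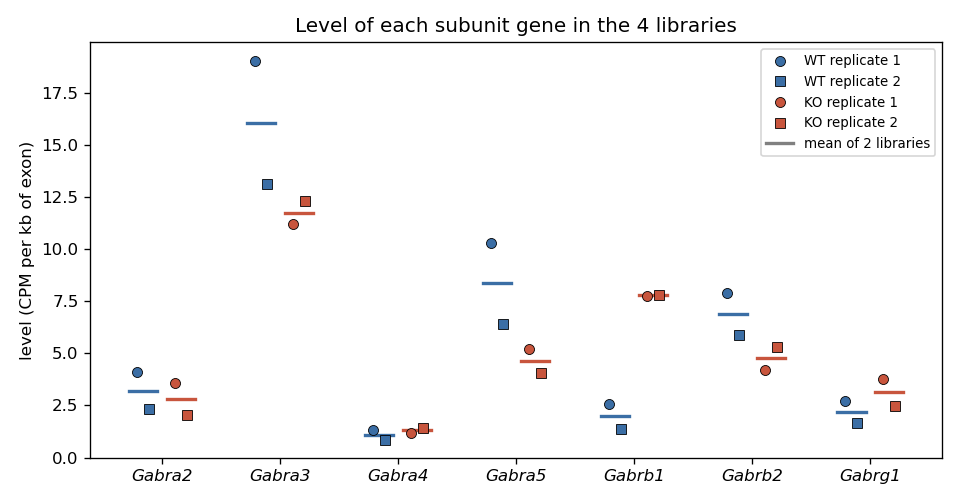
Level of each of the 7 subunit genes, in CPM per kb of exon, in the 2 WT libraries (blue) and the 2 KO libraries (red), with circles for replicate 1, squares for replicate 2 and a bar at the mean of the 2 libraries. *Gabrb1* lies at 7.75 and 7.80 in KO and at 2.57 and 1.37 in WT, and WT replicate 1 is above WT replicate 2 for all 7 genes.

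*Gabrb1* was the gene that rose in KO. It encodes a beta subunit, a class needed for GABA binding and for bringing the receptor to the cell surface, and its transcripts are known from astrocytes as well as from neurons. Its counts were 286 and 194 in the WT libraries against 902 and 980 in the KO libraries, or 35.5 and 19.0 CPM in WT and 107 and 108 CPM in KO. Both KO libraries thus lay above both WT libraries, and they were close to each other while the WT libraries were 1.87-fold apart. The log2 fold change was 1.99 (standard error 0.26, 95% interval 1.38 to 2.60, edgeR adjusted p = 0.00245), a 3.97-fold higher level in KO (interval 2.61 to 6.06). In all 14 other fits *Gabrb1* was called higher, with log2 fold changes between 1.98 and 2.38 over 10 changes of tool, scaling, filter or model and between 1.59 and 2.49 when 1 library was left out. By the measure of likeness used here, the distance of centred log2 CPM over the 4 libraries among 11734 genes, *Mcur1* (distance 0.124) and *Dgkb* (distance 0.138), a diacylglycerol kinase gene, had the profiles nearest to that of *Gabrb1*.

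On the plus strand of chromosome 5 (GRCm38) *Gabrb1* spans 71658113 to 72149037, and its exons add up to 13.838 kb. It stands head to head with *Gabra4*, which lies from 71569749 to 71658308 on the minus strand, and the spans of the 2 genes share 196 bases, of which 46 are exonic in both. Its neighbour *Gabra4* encodes an alpha subunit that is best known from receptors outside synapses. Counts of *Gabra4* were low, 65 and 51 for WT against 61 and 79 for KO, or 8.07 and 5.00 CPM in WT and 7.25 and 8.70 CPM in KO. The genotypes overlapped, and the log2 fold change was 0.30 (95% interval -0.49 to 1.09, edgeR adjusted p = 0.646), which turned to -0.03 without WT replicate 2. Within each library, where no scaling between libraries enters, the level per kb of *Gabrb1* was 1.93 and 1.67 times that of *Gabra4* in WT and 6.50 and 5.45 times in KO. The mean log2 ratio was 1.73 higher in KO, and an exact two-sided permutation test over the 4 libraries gave p = 0.333, the smallest p that 2 against 2 libraries allow (also after adjustment over 3 such ratios).

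The stretches before the transcription starts are shown for *Gabrb1* and for the 3 genes it is set against here, its cluster neighbours *Gabra2* and *Gabrg1* and the most abundant gene *Gabra3*, since CG pairs are the sites that DNMT1 methylates and these stretches differ widely in them. DNA methylation was not analysed here. Each run holds the 250 bases before a RefSeq transcription start on GRCm38.p6, 5′ to 3′ on the gene's strand, with every CG in capitals. The positions are chr5:71699682-71699931 on the plus strand for the downstream one of 2 RefSeq starts of *Gabrb1*, chr5:71095850-71096099 on the minus strand for *Gabra2*, chr5:70842618-70842867 on the minus strand for *Gabrg1* and chrX:72656920-72657169 on the minus strand for one of 2 starts of *Gabra3*.
Gabrb1: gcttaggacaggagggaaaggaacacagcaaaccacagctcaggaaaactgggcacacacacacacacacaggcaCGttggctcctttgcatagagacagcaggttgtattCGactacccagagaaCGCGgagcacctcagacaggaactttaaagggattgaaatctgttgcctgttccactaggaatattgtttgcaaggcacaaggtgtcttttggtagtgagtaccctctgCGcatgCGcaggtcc
Gabra2: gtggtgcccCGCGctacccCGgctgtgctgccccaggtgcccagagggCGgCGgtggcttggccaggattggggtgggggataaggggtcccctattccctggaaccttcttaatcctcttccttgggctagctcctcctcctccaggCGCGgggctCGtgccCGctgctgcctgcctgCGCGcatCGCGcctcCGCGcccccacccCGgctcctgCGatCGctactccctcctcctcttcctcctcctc
Gabrg1: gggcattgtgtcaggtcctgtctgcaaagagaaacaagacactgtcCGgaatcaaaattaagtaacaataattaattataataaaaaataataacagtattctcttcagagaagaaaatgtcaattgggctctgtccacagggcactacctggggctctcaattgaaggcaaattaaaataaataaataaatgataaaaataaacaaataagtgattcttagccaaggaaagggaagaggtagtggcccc
Gabra3: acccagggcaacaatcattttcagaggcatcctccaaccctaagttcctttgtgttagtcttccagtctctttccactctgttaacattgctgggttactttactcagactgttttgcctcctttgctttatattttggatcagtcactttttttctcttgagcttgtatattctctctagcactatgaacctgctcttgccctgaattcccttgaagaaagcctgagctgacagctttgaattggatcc

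The stretch of *Gabrb1* held 6 CG pairs, that of *Gabra2* 18, that of *Gabrg1* 1 and that of *Gabra3* 0. CG reads the same on both strands. Of all 32851 RefSeq windows of this length, 50.4% held at least 6 CG pairs, 21.7% held at least 18, and 18.8% held at most 1, with a median of 6. The other start of *Gabrb1*, 42011 bases upstream and within the 5′ end of *Gabra4*, was preceded by 18 CG pairs, and the start of *Gabra4* by 12. Reads counted per gene do not tell which of the 2 starts of *Gabrb1* was used. *Gabra5* had 9 CG pairs before its start, the 3 starts of *Gabrb2* had 8, 8 and 4, and the other start of *Gabra3* had 0.

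Like *Gabra4*, the other alpha genes described here did not pass the test. *Gabra3*, on chromosome X from 72432681 to 72656848, encodes an alpha subunit that is prominent in the developing brain. WT libraries held 601 and 526 counts of it and KO libraries 371 and 438, or 74.6 and 51.5 CPM in WT and 44.1 and 48.2 CPM in KO. The genotypes did not overlap, KO being lower and WT replicate 1 standing highest (log2 fold change -0.45, 95% interval -0.91 to 0.01, edgeR adjusted p = 0.232). Without WT replicate 2 the value was -0.70 and was called, and without WT replicate 1 it was -0.17. *Gabra5*, on chromosome 7 from 57407672 to 57510059, encodes the alpha subunit known for tonic inhibition outside synapses, and WT libraries held 246 and 195 counts of it, KO libraries 130 and 110. These were 30.5 and 19.1 CPM in WT and 15.5 and 12.1 CPM in KO, without overlap of the genotypes. The log2 fold change of *Gabra5* was -0.84 (standard error 0.28, 95% interval -1.48 to -0.20), which had an unadjusted p of 0.016 and an edgeR adjusted p of 0.118. It was called lower in 4 of 10 other fits, namely without a filter on low counts, with the replicate block, and with the length and GC correction alone or together with the block, and also without WT replicate 2 (-1.16), whereas it was -0.48 and not called without WT replicate 1. Of its exonic bases, 4.98% overlap the antisense gene *Gm9962*, which had at most 6 counts in a library.

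*Gabra2* encodes an alpha subunit found at synapses on the axon initial segment and elsewhere, and lies on chromosome 5 from 70957597 to 71095849. Its counts were 251 and 180 for WT against 230 and 141 for KO, or 31.2 and 17.6 CPM in WT and 27.3 and 15.5 CPM in KO. In both genotypes replicate 1 was the higher library, and the spread within each genotype exceeded the difference between their means (log2 fold change -0.18, 95% interval -0.97 to 0.60, edgeR adjusted p = 0.796). The direction of *Gabra2* was not stable, with 0.27 under the length and GC correction, 0.27 without WT replicate 1, 0.18 without KO replicate 2, and a call as lower (-0.56) without WT replicate 2.

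Of the other beta and gamma genes described here, neither passed the test. *Gabrb2*, on chromosome 11 from 42419757 to 42629028, encodes the beta subunit that is widespread in the adult brain. WT libraries held 404 and 381 counts and KO libraries 225 and 306, or 50.1 and 37.3 CPM in WT and 26.7 and 33.7 CPM in KO. Both KO libraries were below both WT libraries, and the log2 fold change was -0.53 (95% interval -1.01 to -0.05, edgeR adjusted p = 0.180), which was called without WT replicate 2 (-0.74) and was -0.31 without WT replicate 1. The ratio of *Gabrb1* to *Gabrb2* per kb was 0.325 and 0.234 in WT and 1.84 and 1.47 in KO, so that *Gabrb1* was the lower of the 2 in WT and the higher in KO. Per kb of the longest transcript it was again the lower in WT, but in KO it was the higher in replicate 1 and the lower in replicate 2. *Gabrg1*, on chromosome 5 from 70751047 to 70842617, encodes a gamma subunit of restricted distribution whose transcripts are also known from astrocytes. Its counts were 171 and 132 for WT against 251 and 177 for KO, or 21.2 and 12.9 CPM in WT and 29.8 and 19.5 CPM in KO. WT replicate 1 lay above KO replicate 2, so that the genotypes overlapped, and the log2 fold change was 0.54 (95% interval -0.16 to 1.23, edgeR adjusted p = 0.336). *Gabrg1* was called higher under the length and GC correction (1.15) and without WT replicate 1 (0.92), whereas the value was 0.20 without WT replicate 2 and 0.21 without KO replicate 1, neither of them called.

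Over the 7 genes, 1 was called higher, 0 were called lower and 6 were not called, with 3 of the 7 at an unadjusted p under 0.05 (22.7% of all tested genes), and DESeq2 and limma-voom also called 0 lower. The called share of 14.3% is a single gene, and over all tested genes 7.90% were called, 7.33% higher and 0.570% lower. Their median log2 fold change was -0.18, beside -0.03 over all genes tested, and it turned to 0.27 under the length and GC correction, 0.25 with the block added, 0.27 without WT replicate 1 and 0.17 without KO replicate 2. The libraries of the genotypes did not overlap for 4 of the 7 genes, 1 above and 3 below, and this held for 53.5% of all genes, with 28.3% above and 25.2% below. All 7 genes were higher in WT replicate 1 than in WT replicate 2, which was so for 52.5% of all tested genes, and 5 members, 1 higher and 4 lower, were called without WT replicate 2. In that fit 23.3% of all 18100 tested genes were called, 11.2% higher and 12.0% lower.

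**Figure D2:**
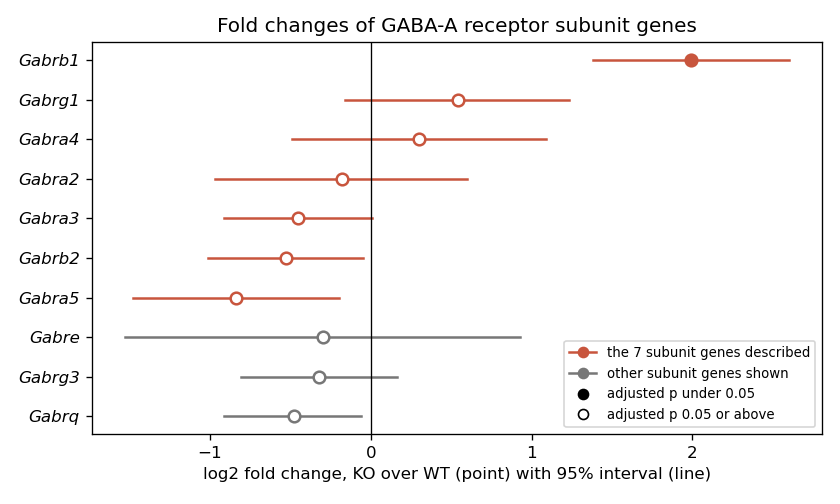
Log2 fold change of KO over WT (points) with its 95% interval (lines) for the 7 subunit genes described (red) and 3 further subunit genes (grey), with filled points at an edgeR adjusted p under 0.05. *Gabrb1* stands at 1.99 with an interval from 1.38 to 2.60, above 0 in its whole length, and is the filled point.

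*Gabrb1*, *Gabrg1* and *Gabra4* took a larger share of the summed level of the 7 genes in both KO libraries than in both WT libraries. This sum was 47.8 and 31.6 CPM per kb in WT and 37.0 and 35.4 CPM per kb in KO. Of it *Gabrb1* made up 4.86% ± 0.716 in WT and 21.5% ± 0.750 in KO (SD, n = 2). *Gabrg1* made up 5.42% ± 0.307 in WT and 8.63% ± 2.31 in KO. *Gabra4* made up 2.69% ± 0.121 in WT and 3.63% ± 0.575 in KO. The larger shares of these 3 genes in KO stood against smaller shares of *Gabra3*, *Gabra5* and *Gabrb2*. *Gabra3* made up 40.7% ± 1.31 in WT and 32.6% ± 3.04 in KO, *Gabra5* 20.9% ± 0.792 in WT and 12.8% ± 1.81 in KO, and *Gabrb2* 17.5% ± 1.49 in WT and 13.2% ± 2.54 in KO. For these 6 genes the shares did not overlap between genotypes, but with *Gabrb1* taken out of the sum the shares of *Gabra3* (42.0% and 43.5% in WT, 38.5% and 44.5% in KO) and *Gabrb2* (17.4% and 19.4% in WT, 14.4% and 19.2% in KO) did. In CPM the genotypes overlapped for *Gabrg1* and *Gabra4*. Shares were formed among the 7 genes only and so have no background over all genes. In CPM, 53.5% of all tested genes did not overlap. The shares of *Gabra2* overlapped between genotypes. Shares of 1 sum depend on each other, so that a larger share of 1 gene lowers those of the others. They were given no test.

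**Figure D3:**
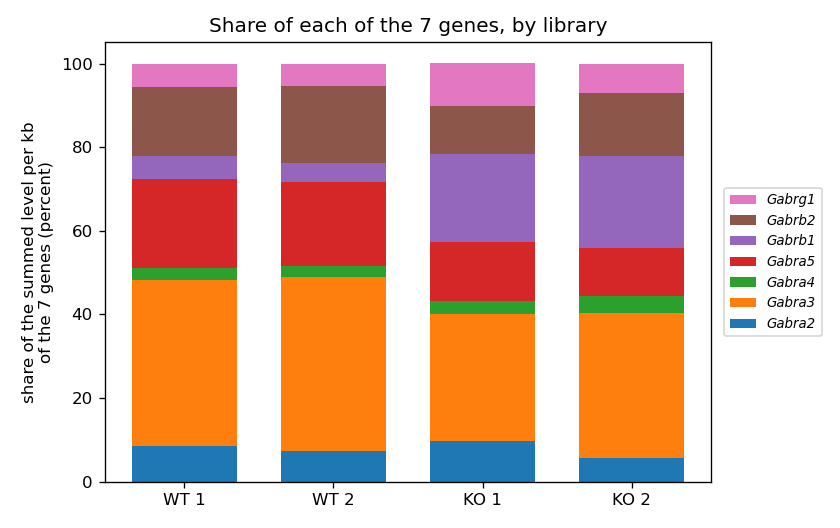
Share of each of the 7 genes in their summed level, in percent of CPM per kb of exon, stacked for the 2 WT and 2 KO libraries. *Gabrb1* takes 21.5% ± 0.750 in KO and 4.86% ± 0.716 in WT (mean ± SD of 2 libraries).

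Values are given for 9 further genes of the family, of which 3 passed the expression filter. EdgeR called 0 of these 3, as did DESeq2 and limma-voom, and 1 had an unadjusted p under 0.05. *Gabrq*, the theta subunit gene, had 34.3 ± 1.30 CPM in WT and 24.6 ± 3.59 CPM in KO (SD, n = 2, log2 fold change -0.48, edgeR adjusted p = 0.170). *Gabrg3* had 40.7 ± 10.2 CPM in WT and 32.5 ± 3.53 CPM in KO (SD, n = 2), with overlap of the genotypes (-0.32, edgeR adjusted p = 0.405). *Gabre*, the epsilon subunit gene, had at most 4.63 CPM in a library (-0.30, edgeR adjusted p = 0.784). Without WT replicate 2 *Gabrq* (-0.53) and *Gabrg3* (-0.57) were called lower, whereas *Gabrg3* was -0.05 without WT replicate 1 and under the length and GC correction. *Gabra6*, the alpha gene of cerebellar granule cells, and *Gabrp* had 0 counts in all libraries, which allows a level of up to 0.372 CPM in a library for counting error alone, and *Gabrd*, *Gabrr1*, *Gabrr2* and *Gabrr3* had at most 12 counts in any library.

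GABA-A receptor subunit genes lie in clusters. *Gabrg1*, *Gabra2*, *Gabra4* and *Gabrb1* share a stretch of 1.40 Mb on chromosome 5 with 1 other protein-coding gene, *Cox7b2*, which had at most 1 count in a library. Of these 4 neighbours *Gabrb1* alone was called in the fit reported, and it is also the one on the plus strand. *Gabrg1* was called higher too under the length and GC correction, alone (1.15) or with the block (1.16). *Gabra2* (0.27) and *Gabra4* (0.55) were not called under the correction. *Gabra3* lies in a cluster of 0.59 Mb on chromosome X with *Gabre*, *Gabrq* and *Magea10*, which had 0 counts in every library. The 3 subunit genes of this cluster had negative log2 fold changes, from -0.48 for *Gabrq* to -0.30 for *Gabre*, and were not called, and that of *Gabre* was 0.26 without KO replicate 1 and -1.22 without KO replicate 2.

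**Figure D4:**
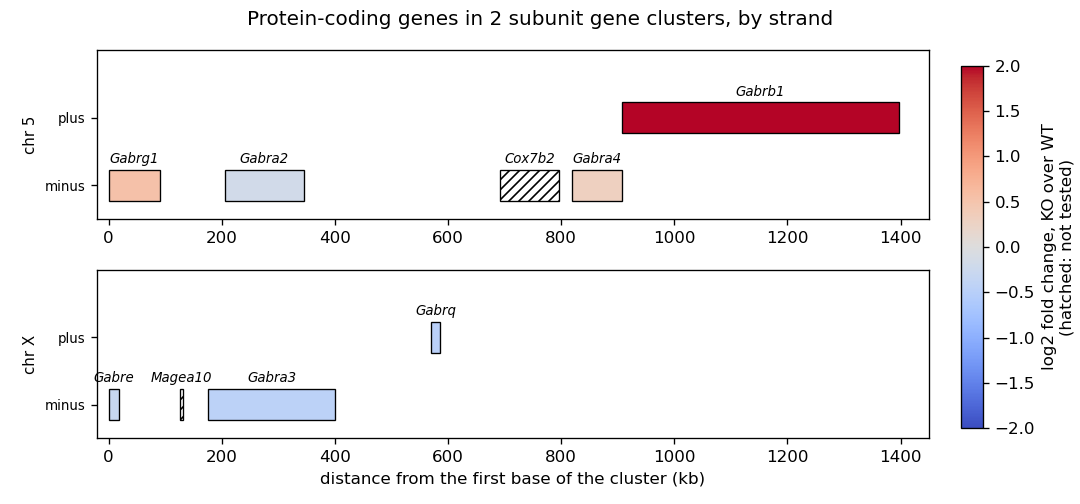
Protein-coding genes in the subunit gene clusters on chromosomes 5 and X, drawn to scale in kb from the first base of each cluster and separated by strand, coloured by the log2 fold change of KO over WT, with hatching for genes that were not tested. *Gabrb1* on chromosome 5 is the deep red gene, and the tested genes on chromosome X are in shades of blue.

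Genes whose products assemble, move or anchor GABA-A receptors were taken from a list, with both GABA-B receptor genes beside them. Of these 20 genes, all of which were tested, 2 were called higher, 0 were called lower and 18 were not called, beside 7.33% higher and 0.570% lower over all tested genes, and 6 had an unadjusted p under 0.05 (22.7% of all tested genes). Under the length and GC correction 3 were called higher and 3 lower, beside 12.5% and 3.97% of all tested genes. DESeq2 and limma-voom gave the same counts of 2 and 0. Their median log2 fold change was -0.03. *Gphn*, which encodes the scaffold gephyrin under inhibitory synapses, had 82.7 and 84.8 CPM in WT and 80.8 and 83.6 CPM in KO (log2 fold change -0.03, 95% interval -0.35 to 0.30, edgeR adjusted p = 0.936). *Trak1*, which encodes a motor adaptor for organelle transport, rose from 125 and 143 CPM to 191 and 224 CPM (0.63, edgeR adjusted p = 0.0447). *Gabbr2*, which encodes a subunit of the metabotropic GABA-B receptor, rose from 29.3 and 40.4 CPM to 59.7 and 65.6 CPM (0.84, edgeR adjusted p = 0.0322). Neither was called without KO replicate 2 (adjusted p = 0.563 for *Trak1* and 0.159 for *Gabbr2*), and *Trak1* was also not called without KO replicate 1 (0.107). *Gabbr1* had 356 and 376 CPM in WT and 438 and 470 CPM in KO and was not called (0.31, edgeR adjusted p = 0.220), except under the length and GC correction (0.35), alone or with the block, and without WT replicate 2 (0.34). *Gabarap*, whose product binds gamma subunits on their way through the cell, had 142 and 164 CPM in WT and 105 and 118 CPM in KO (-0.46, edgeR adjusted p = 0.116). *Gabarap* was called lower with the replicate block (adjusted p = 0.0328), under the length and GC correction (-0.60) alone or with the block, and without WT replicate 1 (-0.57).

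Markers of other cells moved with the genotype. All 10 astrocyte markers rose, with a summed level of 262 to 277 CPM in WT and 3668 to 3865 CPM in KO, and *Gfap* had 0 counts in both WT libraries. Of 6 oligodendrocyte markers 5 were called higher (128 to 152 CPM summed in WT, 541 to 560 CPM in KO). So were 5 of 6 mural cell markers (48.2 to 53.3 CPM in WT, 310 to 320 CPM in KO). EdgeR also called higher 1 of 5 oligodendrocyte precursor markers (2 with DESeq2) and 1 of 6 radial glia markers. Of 4 tested microglia markers it called 1 higher (0 with limma-voom). Over all tested genes 7.33% were called higher and 0.570% lower. Both KO libraries lay above both WT libraries for all 5 precursor, all 6 radial glia and 3 microglia markers (28.3% of all tested genes). Of these, 4, 4 and 3 had an unadjusted edgeR p under 0.05 (22.7% of all tested genes). Of 4 tested endothelial markers 0 were called by edgeR and 3 had an unadjusted p under 0.05, and DESeq2 and limma-voom also called 0. Of 4 glutamatergic markers edgeR called 1 lower, *Neurod6* (2 with DESeq2). All 4 had both KO libraries below both WT libraries, and 3 had an unadjusted edgeR p under 0.05. Of 2 tested choroid plexus markers 1 was called lower, *Ttr*. It had 40.8 and 55.3 CPM in WT and 0.951 and 1.1 CPM in KO (log2 fold change -5.53). Of 10 markers of neurons in general 3 fell, *Stmn2*, *Syt1* and *Elavl4*, and the summed level was 6196 to 6743 CPM in WT and 4541 to 4597 CPM in KO. Of 7 GABAergic markers edgeR called 0, as did DESeq2 and limma-voom, 2 had an unadjusted p under 0.05, and all 7 had negative log2 fold changes with a median of -0.29. *Gabrb1*, *Gabrg1* and *Gabra4* had positive log2 fold changes. Positive medians were those of the astrocyte, oligodendrocyte, mural cell, microglia, radial glia and oligodendrocyte precursor markers (4.16, 2.03, 1.90, 0.96, 0.56 and 0.46). *Gabra2*, *Gabra3*, *Gabra5* and *Gabrb2* had negative log2 fold changes. Negative medians were those of the neuronal, GABAergic, glutamatergic, endothelial and choroid plexus markers (-0.56, -0.29, -0.63, -0.37 and -2.66). The signs of *Gabra2* and *Gabra4* turned in some fits. The part of these other cells in the levels of the subunit genes was not tested, and in pooled cells fewer cells of a type and less RNA per cell cannot be told apart.

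The call of *Gabrb1* did not depend on the procedure among those tried, and *Gabra4* was called in none of the fits. *Gabra2*, *Gabra3*, *Gabra5*, *Gabrb2* and *Gabrg1* were each called in at least 1 of them. Over 98 fits, 14 for each gene, 5 turned a direction, 4 of *Gabra2* and 1 of *Gabra4*.

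**Figure D5:**
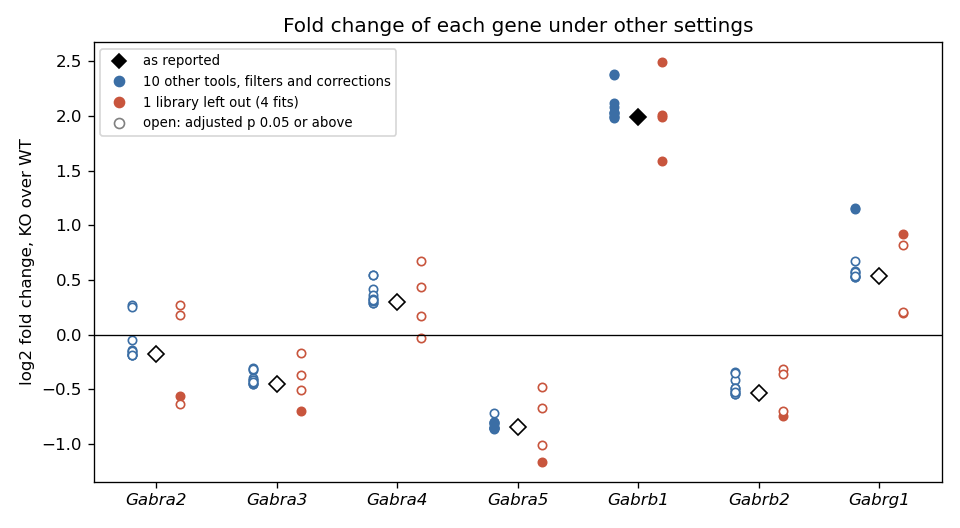
Log2 fold change of KO over WT for each of the 7 genes as reported (black diamonds), under 10 other tools, scalings, filters and models (blue) and with 1 library left out (red), with filled symbols at an adjusted p under 0.05. *Gabrb1* stays between 1.59 and 2.49, while *Gabra2* lies on both sides of 0.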

How the data were processed

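RNA-seq counts of 4 libraries, 2 *Dnmt1* WT and 2 *Dnmt1* KO, were used. The lists deposited by the authors hold raw counts of reads for each Ensembl gene, 1 list per library, without normalization. The submitters' processing notes name CASAVA 1.8.2, STAR 2.5.2a and featureCounts 1.5.0-p1 and the builds mm10 and GRCm38. The annotation release and the strand setting of the counting are not given in the sources used here, so that reads of overlapping genes on opposite strands may not be separated. Genotype and replicate number were taken from the sample titles.

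Of 55573 identifiers, 55480 matched GENCODE M21 (GRCm38), which gave symbols, positions and exon lengths. Low counts were removed with filterByExpr, libraries scaled by TMM and genes tested with edgeR's quasi-likelihood test with genotype as the only term (edgeR 4.0.16, limma 3.58.1, R 4.3.3), with Benjamini-Hochberg adjustment over 16832 genes and a threshold of 0.05. No test for these counts is given in the sources used here. Standard errors and 95% intervals were derived from the test statistic. CPM used TMM-scaled library sizes. No list was tested as a set. Some genes of the lists are not reported here, but stayed in the fit across all genes. The members and lists were chosen with earlier results of these data known. Named genes are the 7 members, listed subunit and partner genes that passed or are named for their role, *Dnmt1*, *Hmx3*, cluster neighbours, and the 2 genes nearest in profile to each called member among genes with a mean of at least 50 counts (pseudocount 0.5). All 7 members matched RefSeq promoter windows.

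The files of 1 genotype differed beyond counting noise (chi-square of their counts, divided by its degrees of freedom, 57.2 in WT and 4.28 in KO), which does not tell technical from biological replicates, and each library was counted once. Alternatives were DESeq2 1.42.0, limma-voom, other scalings, filters and thresholds, the replicate number as a block, a spline correction for gene length and GC content, and each library left out. In simulated counts 200 genes were changed by a log2 value of 2, of which 198 were tested among 16228 genes. With edgeR 91.4% of them were found, and false ones made up 4.7% of the calls. The simulated spread was the same in both genotypes, unlike that of the real libraries. Smaller changes were not simulated, so these rates do not cover the smaller log2 fold changes of the members not called.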

Additional observations from a re-analysis of the deposited data

How the results depend on the processing

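The number of genes called over the whole table was 1329, and was 2363 without a filter, 883 with at least 10 counts in every library, 2244 with the replicate block, 2773 with the length and GC correction, 3006 with both and 740 at an adjusted p under 0.01. Of the 7 members 1 was called, and 2 without a filter, 2 with the replicate block, 3 with the correction and 3 with both. Of the 3 other subunit genes tested 0 were called by edgeR, DESeq2 or limma-voom (1 at an unadjusted p under 0.05) and in the other fits on all 4 libraries. Of the 20 partner genes 2 were called, and 6 with the correction, 6 with the correction and the block (3 higher and 3 lower each) and 0 at 0.01. Leaving out 1 library gave 951 to 4209 genes over the whole table (48.2% higher in KO without WT replicate 2, against 92.8% with all libraries), 1 to 5 members, 0 to 2 other subunit genes (2 without WT replicate 2) and 0 to 5 partner genes. The log2 fold change of *Gabra2* turned from -0.18 to 0.27 with the correction, 0.25 with the correction and the block, and ranged from -0.63 to 0.27 when 1 library was left out (positive without WT replicate 1 or KO replicate 2), and that of *Gabra4*, 0.30, ranged from -0.03 (without WT replicate 2) to 0.67. Of the 98 fold changes of members under alternatives, 82 kept direction and side of the threshold, 11 kept the direction and came to pass it and 5 turned. Library size only moved the median log2 fold change of all genes from -0.03 to 0.08. The causes were not tested.

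Deviations from the genotype mean correlated at 0.293 across 11746 genes between libraries sharing a replicate number, but nothing in the labels says that a number marks a shared embryo or day, and the block was kept as an alternative. With 1 library left out a genotype has 1 library, which is assumed to vary like the others, and edgeR's prior degrees of freedom were at least 435 there, or infinite (also without a filter), so that these p-values rest on the spread pooled over genes. Depth limits *Gabra4* most among the members, with 51 to 79 counts a library.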
